A study of Mus musculus with 8 samples.

Results

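A set of 10 genes for the discs and the supporting structure of the photoreceptor outer segment were followed in whole mouse retina: Prph2, Rom1, Prom1, Cdhr1, Rp1, Rp1l1, Rpgrip1, Tulp1, Fscn2 and Impg2. They were named by what their proteins do in the photoreceptor, and the rule used no value measured here. The genes were still chosen with earlier results of these data known. All 10 had an entry among the 57010 genes of the deposited count table, and all 10 were among the 20457 genes with enough reads to be tested. The retinas came from wild type (WT) mice at postnatal day 15 (P15) and from mice homozygous for rd10 at P15, P18 and P21, with 2 libraries a group, each from 1 retina. Per the study's methods, rd10 mice were compared with WT littermates, and the WT mice of the study were C57BL/6J. The rd10 mutation lies in Pde6b, which codes for a subunit of the rod phosphodiesterase of the light response, and it is present in every cell of the animal. No WT retina at P18 or P21 was analysed here, so a difference of rd10 P18 or P21 from WT P15 holds both age and genotype. The labels do not say whether the 2 retinas of a group came from separate animals, so p-values measure only the spread between these libraries.

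The outer segment is a modified cilium filled with a stack of flattened membrane discs that carry the light-absorbing pigment and the proteins of the light response. New discs form at its base, above the connecting cilium, through which everything the outer segment needs is carried from the cell body. Old discs are shed at the tip and taken up by the retinal pigment epithelium, so a photoreceptor has to make disc proteins throughout life. Variants in most of these genes are known from inherited retinal dystrophies.

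The libraries held 28076947 to 33724562 counts. Levels are given in CPM, the count of a gene over the library total on a common scale, adjusted by the trimmed mean of M values (TMM), and the 10 genes together took 0.9002% to 1.757% of all counts. Library rd10 P18 replicate 1 stood apart by transcript length. Over 15337 protein-coding genes, its median log2 difference from the WT mean was 0.463 for transcripts up to 1.5 kb and -0.774 for those over 9 kb, while the other 7 libraries lay between -0.075 and 0.098 in every length class. The outer segment genes split in the same order. The 5 with transcripts of up to 3.97 kb were higher in rd10 P18 replicate 1 than in replicate 2, by 0.155 (Prom1) to 0.596 (Rom1) on the log2 scale, and the 5 of 4.33 kb or more were lower, with differences of -0.231 (Rp1) to -0.933 (Rpgrip1). Results at P18 are therefore given with and without that library. Summed counts of 4 Y-linked genes were 4 and 12 in the WT libraries and 5530 and 6054 in the rd10 P15 libraries, so sex and genotype cannot be told apart at P15, and 1 library each of rd10 P18 and P21 had such counts.

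**Figure D1:**
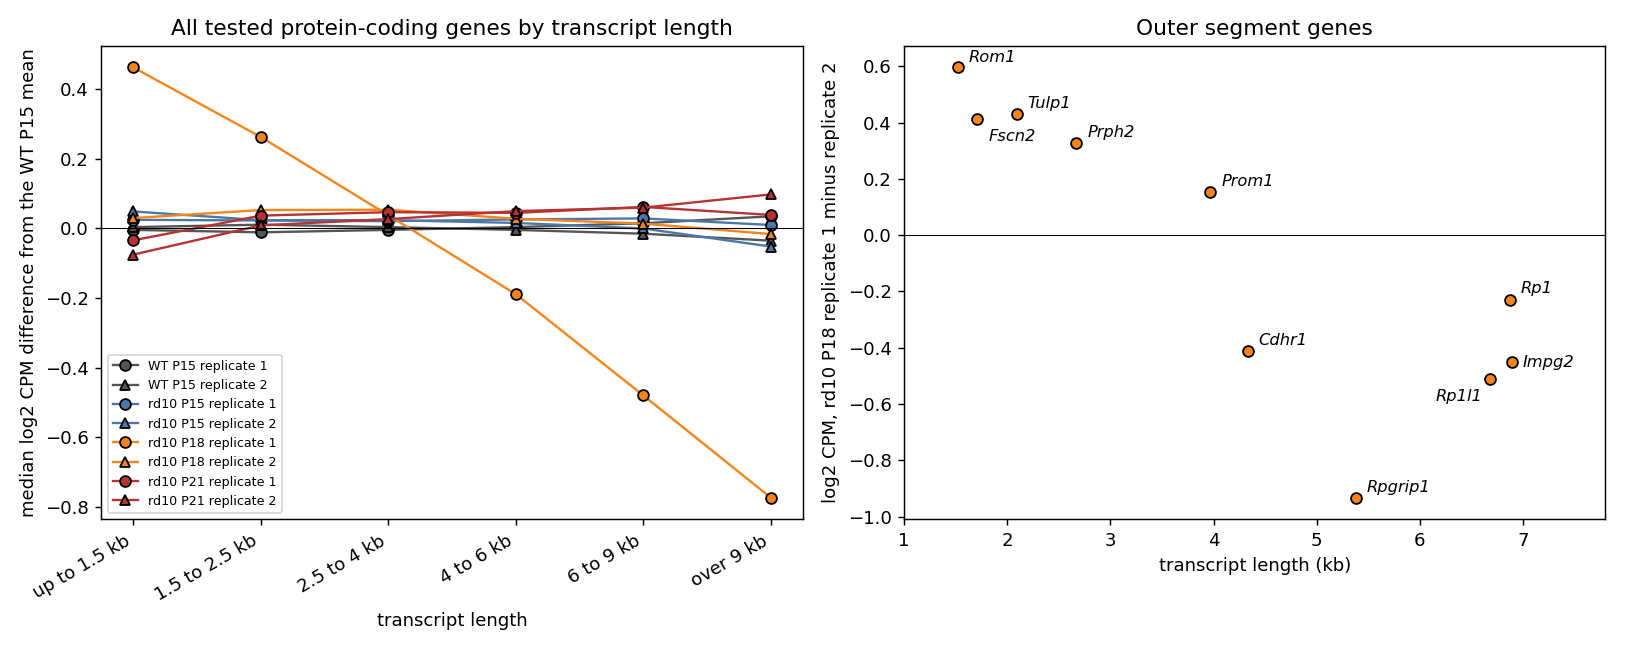
Left, median log2 CPM difference from the WT P15 mean (vertical axis) in 6 classes of transcript length (horizontal axis) for each of the 8 libraries. Right, log2 CPM of rd10 P18 replicate 1 minus replicate 2 for the 10 outer segment genes against transcript length in kb. The rd10 P18 replicate 1 line runs from 0.463 down to -0.774 while the other lines stay near 0, and the outer segment genes cross 0 between 3.97 and 4.33 kb.

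The summed level of the 10 genes was 18760 and 16320 CPM in the WT libraries, then 13240 and 14830 in rd10 at P15, 11570 and 10750 at P18, and 8667 and 11040 at P21. All rd10 libraries were thus below both WT libraries, and the P21 range overlapped the P18 range. In bulk tissue, fewer photoreceptors and less RNA in each photoreceptor cannot be told apart. A gene was called when edgeR's quasi-likelihood test gave a Benjamini-Hochberg adjusted p below 0.05 over all genes tested and the absolute log2 fold change was above 1.

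Against WT P15, no outer segment gene was called at P15, 1 at P18 (Rp1l1) and 2 at P21 (Prph2 and Fscn2), all lower. Of all genes tested by edgeR, 0.0929%, 0.332% and 0.142% were called lower at these ages. DESeq2, the tool the study used, called 0, 2 (Rp1l1 and Fscn2) and 3 (Prph2, Rom1 and Fscn2) of the 10, where 0.951%, 1.2% and 0.53% of its genes were called lower. At an unadjusted edgeR p below 0.05 there were 2, 7 and 9 of the 10, against 12.3%, 17.4% and 11.8% of all genes. Both rd10 libraries lay below both WT libraries for 6 genes at P15, 8 at P18 and 9 at P21, which held for 24.9%, 22.9% and 24.2% of all genes. At P15 no call among 10 genes is what a background this low gives, and 2 of 10 at an unadjusted p is near the share of all genes. The share at an unadjusted p was above that of all genes at P18 and P21, and the share without overlap at each of the 3 ages. The median log2 fold change of the 10 genes was -0.362 at P15, -0.708 at P18 and -0.681 at P21, and that of all genes was -0.00607, 0.0113 and 0.000965. Without rd10 P18 replicate 1, the P18 median was -0.62, with no gene called. The 3 comparisons share the WT libraries, so they are not independent of each other.

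**Figure D2:**
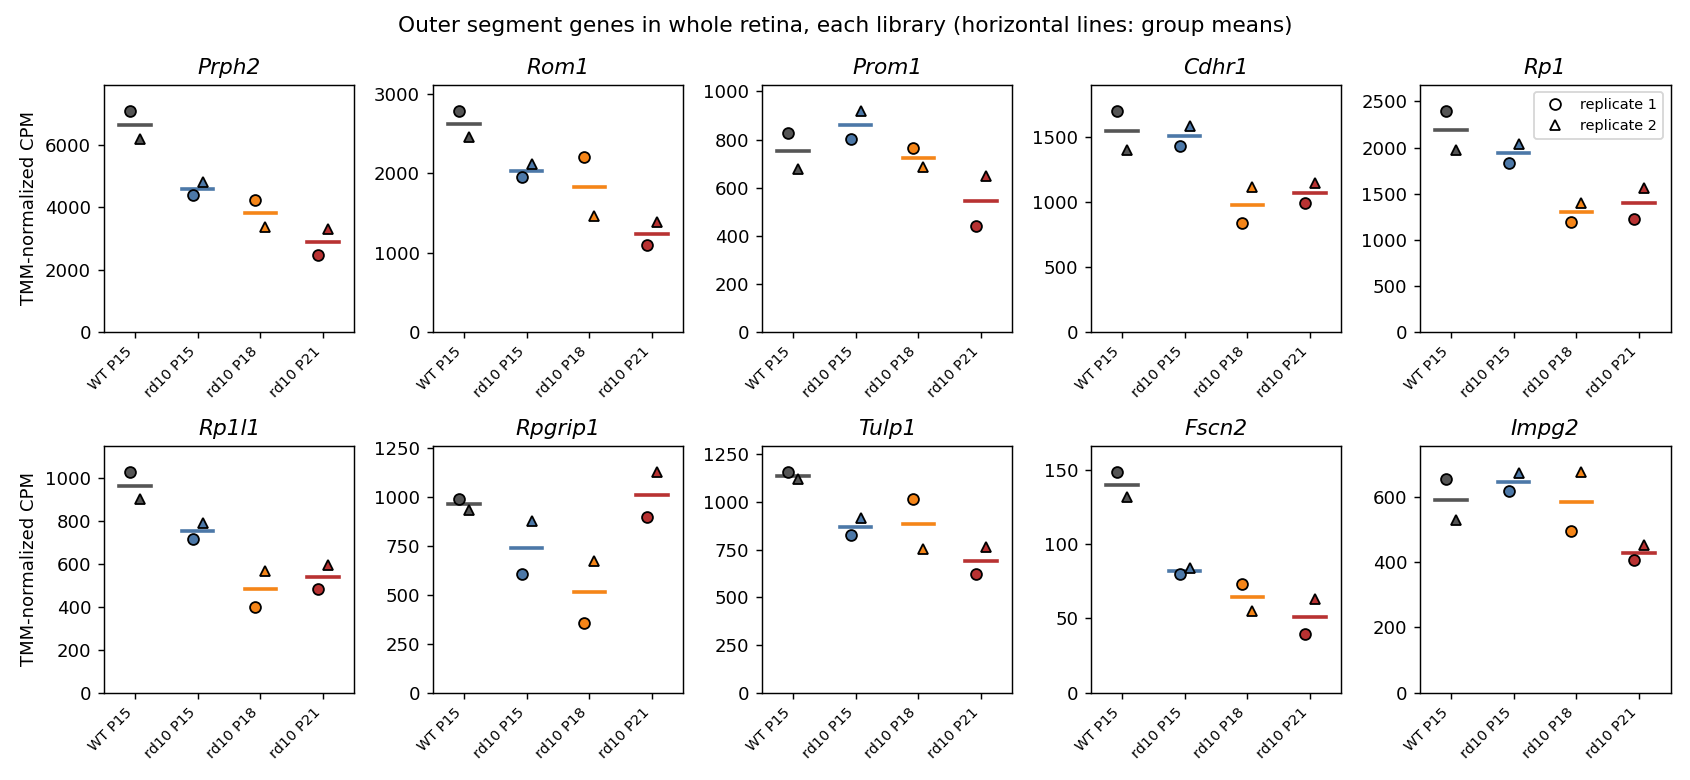
TMM-normalized CPM (vertical axis, from 0, own scale in each panel) of the 10 outer segment genes in each library of the 4 groups. Circles are replicate 1, triangles replicate 2 and horizontal lines group means. Prph2, Rom1, Prom1, Tulp1, Fscn2 and Impg2 have their lowest group means in rd10 P21, and Rp1, Rp1l1, Cdhr1 and Rpgrip1 have theirs in rd10 P18. Rpgrip1 at P21 lies at 898 and 1128 CPM, around its WT level.

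At the disc rim, the tetraspanin Prph2 had the highest level per kb of the 10 genes in WT and was lower in every rd10 library. Prph2 (ENSMUSG00000023978) spans chr17:46910459-46924933 on the plus strand (GRCm38) in 3 exons. Its protein bends the membrane into the sharp edge of the disc and assembles with its partner Rom1. Prph2 measured 7082 and 6189 CPM in the WT libraries, then 4380 and 4829 in rd10 at P15, 4238 and 3373 at P18, and 2468 and 3292 at P21. No rd10 library reached the lower WT library. The log2 fold change against WT was -0.53 ± 0.19 (SE, n = 2 against 2) at P15 with an edgeR adjusted p of 0.295, and -0.80 ± 0.19 at P18 with 0.0765 (-0.98 without rd10 P18 replicate 1, edgeR adjusted p = 0.0633). At P21 Prph2 fell 2.3-fold, with a log2 fold change of -1.20 ± 0.19 (95% interval -1.63 to -0.78) and an edgeR adjusted p of 0.0487. That call stands close to the threshold: over 15 alternatives the log2 fold change stayed between -1.42 and -1.01, and the adjusted p ran from 1.137e-06 (DESeq2) to 0.286. By edgeR the adjusted p rose to 0.286 without WT replicate 1, 0.126 without WT replicate 2, 0.0982 or 0.0987 without either rd10 P15 library and 0.23 without rd10 P21 replicate 1.

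Rom1, the other tetraspanin of the rim, was also lower in every rd10 library, with no call by edgeR on the filtered genes of all 8 libraries. Rom1 (ENSMUSG00000071648) spans chr19:8927391-8929356 on the minus strand (GRCm38) in 3 exons, and its transcript of 1.52 kb is the shortest of the 10. It measured 2780 and 2462 CPM in the WT libraries, then 1949 and 2119 in rd10 at P15, 2202 and 1457 at P18, and 1094 and 1385 at P21. Both P21 libraries lay below all other libraries, and the widest gap within a group was at P18. The log2 fold change was -0.37 ± 0.21 at P15 (edgeR adjusted p = 0.541) and -0.52 ± 0.21 at P18 (edgeR adjusted p = 0.259). Without rd10 P18 replicate 1 the P18 value was -0.85, with an edgeR adjusted p of 0.0416 and still short of the fold threshold. At P21 it was -1.08 ± 0.21 (95% interval -1.57 to -0.59), larger in size than the fold threshold, with an edgeR adjusted p of 0.0881. DESeq2 called it, with an adjusted p of 0.000251. So did edgeR with no filter on low counts (adjusted p = 0.0436), with only the 4 libraries compared (0.0351) and without either rd10 P18 library (0.00862 and 0.00921).

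Per kb of transcript, Prph2 stood at 1.45 and 1.43 times Rom1 in the WT libraries, and in rd10 at 1.28 and 1.3 times at P15, 1.1 and 1.32 times at P18, and 1.28 and 1.35 times at P21. All 6 rd10 ratios were below both WT ratios, and rd10 P18 replicate 1, in which short transcripts were high, gave the lowest of them. The promoter windows of this pair, from RefSeq (GRCm38.p6), run from 250 bases before to 50 bases after the RefSeq gene start. They are shown because both genes were lower in all rd10 libraries, with chr17:46910228-46910527 (plus strand) for Prph2 and chr19:8929307-8929606 (minus strand) for Rom1. Capitals mark TAATC, or the same site on the other strand, GATTA, the shared start of homeodomain sites such as those of CRX, the factor that drives photoreceptor genes.

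Prph2: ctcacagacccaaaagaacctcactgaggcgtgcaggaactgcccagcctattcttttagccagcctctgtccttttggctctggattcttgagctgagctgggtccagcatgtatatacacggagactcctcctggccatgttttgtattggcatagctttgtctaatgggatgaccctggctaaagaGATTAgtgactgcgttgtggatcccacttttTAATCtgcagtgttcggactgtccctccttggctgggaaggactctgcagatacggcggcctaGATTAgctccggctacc

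Rom1: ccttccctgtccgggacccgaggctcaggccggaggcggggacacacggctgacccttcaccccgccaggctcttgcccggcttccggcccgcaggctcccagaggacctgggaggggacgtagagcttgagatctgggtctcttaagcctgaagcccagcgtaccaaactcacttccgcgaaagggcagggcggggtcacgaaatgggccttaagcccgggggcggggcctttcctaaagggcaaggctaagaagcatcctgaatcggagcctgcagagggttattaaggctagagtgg

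Prph2 held these letters at 3 places, starting at -61, -30 and 34 from the RefSeq gene start, and Rom1 held none in this window. The full CRX letters TAATCC, read on the other strand as GGATTA, of which TAATC is a part, were in 1 of the 8 outer segment genes with a promoter entry, Rpgrip1, and in 7.06% of 32851 promoters of the same length. TAATC was in 5 of the 8 (Prph2, Prom1, Tulp1, Rpgrip1 and Impg2), against 22% of all promoters, and was looked for after the sequences had been seen. The shares of all promoters count windows, and by window TAATC was in 5 of 9, since Prom1 had a further window without it. The letters TGCTGA, read on the other strand as TCAGCA and part of the site of the rod factor NRL, were in 1 of the 8, again Rpgrip1, and in 19.5% of all promoters. These matches are descriptions of the windows. Rp1 and Rp1l1 are named only.

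**Figure D3:**
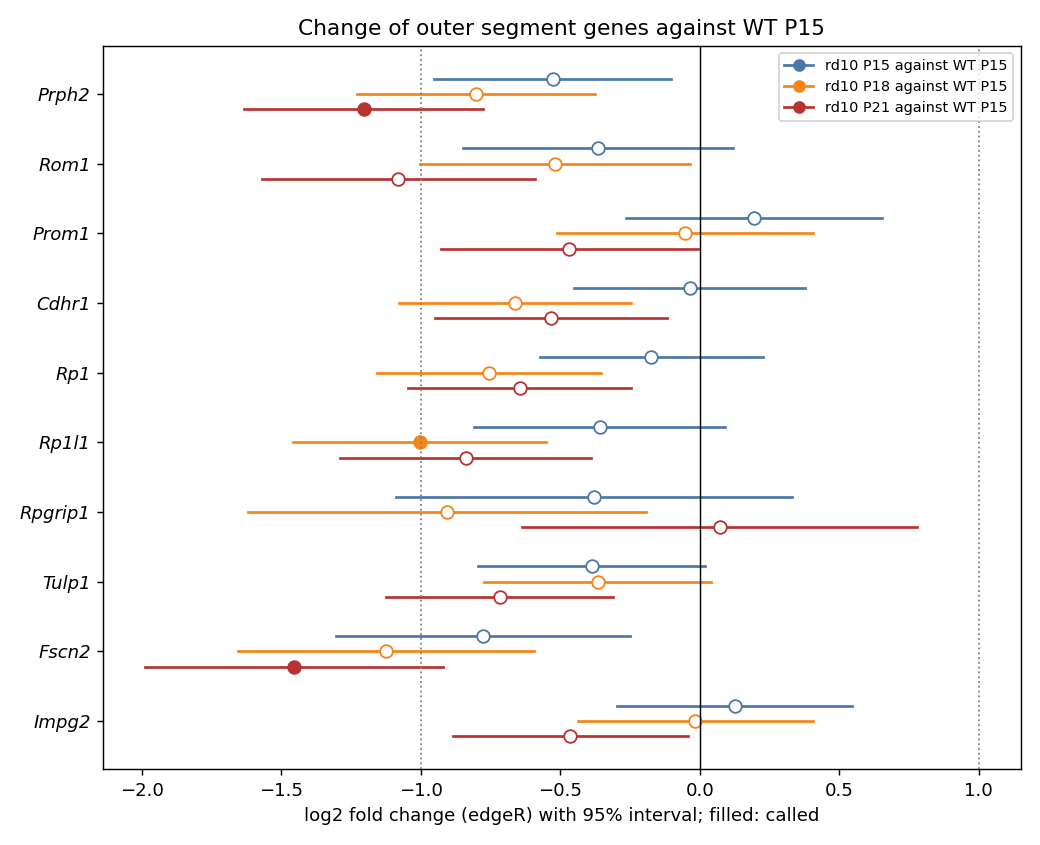
Log2 fold change of each outer segment gene in rd10 at P15, P18 and P21 against WT P15 (horizontal axis), from edgeR over 8 libraries. Lines are 95% intervals, filled circles are called genes and dotted lines mark the fold threshold. Rp1l1 at P18 and Prph2 and Fscn2 at P21 are filled, and Rpgrip1 is the 1 gene with a P21 value above 0, at 0.07.

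At the disc base, Prom1 and Cdhr1 overlapped WT in rd10 at P15 and were not called at any age. Prom1 (prominin 1; ENSMUSG00000029086, chr5:43993620-44102032, minus strand, GRCm38, 28 exons) codes for a protein with 5 membrane spans that sits in the open edges of forming discs, and Cdhr1 (ENSMUSG00000021803, chr14:37077857-37098347, minus strand, 17 exons) for a cadherin of photoreceptors that links new discs to the inner segment. Prom1 measured 827 and 678 CPM in the WT libraries, then 804 and 917 in rd10 at P15, 764 and 686 at P18, and 442 and 647 at P21. Only the P21 libraries lay below both WT libraries. The log2 fold change of Prom1 against WT was 0.19 ± 0.20 at P15 (95% interval -0.26 to 0.65; edgeR adjusted p = 0.771), -0.05 ± 0.20 at P18 (edgeR adjusted p = 0.93; 0.07 when scaled by library size only, and -0.13 without rd10 P18 replicate 1), and -0.47 ± 0.20 at P21 (edgeR adjusted p = 0.415). An antisense gene, Gm16401, shares 424 exon bases with Prom1 and measured 0.358 to 2.31 CPM.

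Cdhr1 measured 1697 and 1396 CPM in the WT libraries, then 1431 and 1584 in rd10 at P15, 839 and 1115 at P18, and 988 and 1147 at P21. The P15 libraries lay inside the WT range, and the 4 later libraries lay below it. At P15 the log2 fold change was -0.04 ± 0.18 (95% interval -0.45 to 0.38; edgeR adjusted p = 0.972), and 0.01 when scaled by library size only. It was -0.66 ± 0.18 at P18 (edgeR adjusted p = 0.115; -0.47 without rd10 P18 replicate 1) and -0.53 ± 0.18 at P21 (edgeR adjusted p = 0.291). Per kb, Cdhr1 stood at 1.88 and 1.89 times Prom1 in WT and at 1.63 and 1.58 times in rd10 P15. The later ratios were 1.01 and 1.49 at P18 and 2.05 and 1.62 at P21, so the order of the groups did not hold beyond P15.

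Along the axoneme, Rp1 and Rp1l1 had their lowest group means at P18, which did not hold without rd10 P18 replicate 1. Both code for proteins with doublecortin domains that bind the microtubules of the outer segment, and both have few, long exons, 4 each. Rp1 (ENSMUSG00000025900, chr1:3999557-4409241, minus strand, GRCm38) measured 2392 and 1978 CPM in the WT libraries, then 1835 and 2040 in rd10 at P15, 1192 and 1399 at P18, and 1228 and 1565 at P21. The P15 libraries overlapped WT and the 4 later libraries did not. Its log2 fold change was -0.17 ± 0.17 at P15, -0.75 ± 0.18 at P18 and -0.65 ± 0.17 at P21, with edgeR adjusted p values of 0.763, 0.0765 and 0.175 (P18 without rd10 P18 replicate 1: -0.64, edgeR adjusted p = 0.149).

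Rp1l1 (ENSMUSG00000046049, chr14:63992506-64035025, plus strand, GRCm38) measured 1025 and 900 CPM in the WT libraries, then 713 and 788 in rd10 at P15, 396 and 564 at P18, and 480 and 596 at P21. No rd10 library reached the WT range. At P18 Rp1l1 fell 2-fold, with a log2 fold change of -1.004 ± 0.20 (95% interval -1.46 to -0.55; edgeR adjusted p = 0.0473). This call rests on rd10 P18 replicate 1, in which transcripts as long as that of Rp1l1 (6.68 kb) were low. Without it the log2 fold change was -0.77, below the fold threshold in size, with an edgeR adjusted p of 0.0463, and without rd10 P18 replicate 2 it was -1.28 with 0.0016. The edgeR adjusted p was also 0.288 without WT replicate 1, 0.141 without WT replicate 2, 0.0894 and 0.0907 without the rd10 P15 libraries, and 0.0564 and 0.0549 without the rd10 P21 libraries, within a range over 15 alternatives of 0.0002227 to 0.288. At P15 and P21 the log2 fold change was -0.36 ± 0.20 (edgeR adjusted p = 0.518) and -0.84 ± 0.20 (edgeR adjusted p = 0.128). Per kb, Rp1 stood at 2.27 and 2.14 times Rp1l1 in WT and at 2.41 to 2.93 times in the 6 rd10 libraries, the highest being rd10 P18 replicate 1.

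Rpgrip1 had its lowest levels at P18 and was the 1 gene of the 10 with a group mean at P21 above its WT mean, with no call at any age. Rpgrip1 (ENSMUSG00000057132, chr14:52110704-52163546, plus strand, GRCm38, 25 exons) codes for the protein that holds the GTPase regulator RPGR at the connecting cilium. It measured 992 and 935 CPM in the WT libraries, then 605 and 877 in rd10 at P15, 354 and 675 at P18, and 898 and 1128 at P21. The P21 libraries straddled the WT range and lay above all P15 and P18 libraries of rd10. The log2 fold change against WT was -0.38 ± 0.31 at P15 (edgeR adjusted p = 0.688), -0.91 ± 0.31 at P18 (edgeR adjusted p = 0.194) and 0.07 ± 0.31 at P21 (95% interval -0.64 to 0.78; edgeR adjusted p = 0.975). Without rd10 P18 replicate 1 the P18 value was -0.51 (edgeR adjusted p = 0.46). Without replicate 2 it was -1.45 and passed (edgeR adjusted p = 0.0242). The SE of 0.31 was the largest among the 10 genes.

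From P18 to P21 in rd10, Rpgrip1 gave a log2 fold change of 0.98 ± 0.31 (edgeR adjusted p = 0.431), which became 0.58 without rd10 P18 replicate 1 (edgeR adjusted p = 0.84) and 1.52 without replicate 2 (edgeR adjusted p = 0.0227), within a range of 0.0227 to 0.862 over 15 alternatives. Set against Prph2, the ratio of Rpgrip1 in CPM was 0.14 and 0.151 in WT, and in rd10 0.138 and 0.182 at P15, 0.0834 and 0.2 at P18, and 0.364 and 0.343 at P21. Both P21 ratios lay above all others. Rpgrip1 took 10.4% and 10.2% of the summed CPM of the 10 genes at P21 and 3.06% to 6.28% in the other 6 libraries. Supt16, a gene on the opposite strand, shares 1057 exon bases with Rpgrip1 and measured 87.9 to 110 CPM in all libraries. Whether counting used the strand is not given in the sources used here.

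The Rpgrip1 promoter (chr14:52110653-52110952, plus strand, RefSeq, GRCm38.p6) is shown as the only window of the 8 genes with the full letters of both searched sites. Capitals mark GGATTA, starting at -28, and TCAGCA, starting at -113, both counted from the RefSeq gene start of this window. The span of Rpgrip1 given above begins earlier, at 52110704 inside the window, so both sites lie within that span.

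Rpgrip1: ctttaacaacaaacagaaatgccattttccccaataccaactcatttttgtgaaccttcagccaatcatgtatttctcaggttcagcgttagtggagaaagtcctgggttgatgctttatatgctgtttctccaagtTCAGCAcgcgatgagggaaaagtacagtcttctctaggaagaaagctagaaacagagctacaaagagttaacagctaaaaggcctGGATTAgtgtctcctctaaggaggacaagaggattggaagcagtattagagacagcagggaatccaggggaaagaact

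Tulp1, a tubby family protein needed to carry proteins to the outer segment, was lower in all rd10 libraries and was not called at any age. Tulp1 (ENSMUSG00000037446, chr17:28351515-28365222, minus strand, GRCm38, 15 exons) measured 1156 and 1120 CPM in the WT libraries, then 824 and 915 in rd10 at P15, 1015 and 752 at P18, and 623 and 762 at P21. The WT libraries lay close together and above all others. Its log2 fold change was -0.39 ± 0.18 at P15 (edgeR adjusted p = 0.431), -0.37 ± 0.18 at P18 (edgeR adjusted p = 0.338; -0.60 without rd10 P18 replicate 1, edgeR adjusted p = 0.0669) and -0.72 ± 0.18 at P21 (edgeR adjusted p = 0.145).

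Fscn2, a retinal fascin that bundles the actin filaments used in disc formation, had the lowest mean per kb of the 10 genes in every group and the largest log2 fold change against WT in size at each age. Fscn2 (ENSMUSG00000025380, chr11:120361534-120368168, plus strand, GRCm38, 5 exons) measured 148 and 132 CPM in the WT libraries, then 79.7 and 83.6 in rd10 at P15, 73.3 and 55.1 at P18, and 39.3 and 63.0 at P21. Every rd10 library was below both WT libraries. The log2 fold change was -0.78 ± 0.23 at P15 (edgeR adjusted p = 0.219) and -1.12 ± 0.23 at P18 (edgeR adjusted p = 0.0551). Without rd10 P18 replicate 1 the P18 value was -1.34 (edgeR adjusted p = 0.0813), and was not called. On all libraries DESeq2 called it (adjusted p = 0.00059), as did edgeR with no filter on low counts (0.0292), and edgeR also called it without either rd10 P21 library (0.03 and 0.0289).

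At P21 Fscn2 fell 2.74-fold, with a log2 fold change of -1.45 ± 0.23 (95% interval -1.99 to -0.92; edgeR adjusted p = 0.0496). Unlike Prph2, Fscn2 was not called with RLE factors (edgeR adjusted p = 0.0503) or with only the 4 libraries compared (edgeR adjusted p = 0.084). Like that of Prph2, the call was lost by edgeR without WT replicate 1 (adjusted p = 0.269), WT replicate 2 (0.132), either rd10 P15 library (0.0977 and 0.0974) or rd10 P21 replicate 1 (0.192). Over 15 alternatives the adjusted p ran from 3.685e-06 (DESeq2) to 0.269, with log2 fold changes between -1.82 and -1.15.

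In the matrix around the outer segments, Impg2 overlapped WT at P15 and P18 and was not called at any age. Impg2 (ENSMUSG00000035270, chr16:56204313-56273756, plus strand, GRCm38, 20 exons) codes for a proteoglycan that spans the photoreceptor membrane and faces the interphotoreceptor matrix. It measured 657 and 530 CPM in the WT libraries, then 620 and 674 in rd10 at P15, 496 and 677 at P18, and 407 and 453 at P21. Only the P21 libraries lay below both WT libraries. The log2 fold change was 0.12 ± 0.18 at P15 (95% interval -0.30 to 0.55; edgeR adjusted p = 0.855), -0.02 ± 0.18 at P18 (edgeR adjusted p = 0.978; 0.10 when scaled by library size only, and 0.19 without rd10 P18 replicate 1) and -0.46 ± 0.18 at P21 (edgeR adjusted p = 0.378).

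The order of the genes by level is given per kb of transcript. In WT the order by CPM per kb was Prph2 (2490 ± 237, SD, n = 2), Rom1 (1730 ± 148), Tulp1 (544 ± 12.3), Cdhr1 (357 ± 49.1), Rp1 (318 ± 42.6), Prom1 (190 ± 26.6), Rpgrip1 (179 ± 7.55), Rp1l1 (144 ± 13.2), Impg2 (86.1 ± 13) and Fscn2 (81.7 ± 6.92). The libraries of Cdhr1 and Rp1, of Prom1 and Rpgrip1, and of Impg2 and Fscn2 overlapped, and the other neighbours did not. In rd10, Prom1 and Rpgrip1 did not overlap at any age. Prom1 lay above at P15 (203 and 231 against 112 and 163 CPM per kb) and P18 (173 and 193 against 65.7 and 125). It lay below at P21 (111 and 163 against 167 and 210). Fscn2 lay below Impg2 at each rd10 age, with 22.9 and 36.8 against 59.1 and 65.8 at P21, while in WT these genes overlapped. The share of Prph2 in the summed CPM of the 10 genes was 37.8% and 37.9% in WT and 28.5% to 36.6% in rd10. The shares of Prom1 were 4.41% and 4.15% in WT, and 5.09% to 6.6% in rd10.

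Within rd10, no outer segment gene was called between ages. From P15 to P18, edgeR called 0.0684% of all genes lower and DESeq2 0.649%, and neither called any of the 10. There were 3 genes at an unadjusted p below 0.05 (12.9% of all genes), namely Cdhr1 at -0.63, Rp1 at -0.58 and Rp1l1 at -0.64, with edgeR adjusted p values of 0.206, 0.222 and 0.231. They are 3 of the 5 genes with transcripts of 4.33 kb or more. Without rd10 P18 replicate 1 they gave -0.43, -0.47 and -0.41, and the count at an unadjusted p below 0.05 was 5, with Prph2 (-0.45, edgeR adjusted p = 0.446) and Rom1 (-0.48, edgeR adjusted p = 0.28) added, against 10.7% of all genes. Both P18 libraries lay below both P15 libraries for 6 genes, as for 20.4% of all genes, and the median log2 fold change was -0.311 (-0.423 without that library) against 0.0124 over all genes.

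From P15 to P21, 9 of the 10 genes had a log2 fold change below 0, against 48.69% of all genes. edgeR called 0.103% of all genes lower, DESeq2 0.555%, and again none of the 10. At an unadjusted p below 0.05 there were 8 genes, against 12.8% of all genes, and for 9 both P21 libraries lay below both P15 libraries, against 25.5%. The median log2 fold change was -0.543, and 0.011 over all genes. The log2 fold changes of those 9 ran from -0.71 (Rom1, edgeR adjusted p = 0.215) to -0.33 (Tulp1, edgeR adjusted p = 0.489), with Prph2 at -0.68 (edgeR adjusted p = 0.187), Fscn2 at -0.68 (edgeR adjusted p = 0.275) and Prom1 at -0.66 (edgeR adjusted p = 0.224). The exception was Rpgrip1, with both P21 libraries above both P15 libraries and a log2 fold change of 0.45 (edgeR adjusted p = 0.599).

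From P18 to P21, 0.0147% of all genes were called lower by edgeR and 0.351% by DESeq2, and none of the 10 by either. An unadjusted p below 0.05 was found for 3 genes (Rom1, Impg2 and Rpgrip1), against 10.8% of all genes. It was found for Impg2 alone (-0.66, edgeR adjusted p = 0.203) without rd10 P18 replicate 1, against 6.15%. Both P21 libraries were below both P18 libraries for 4 genes, against 22%, and the median log2 fold change was -0.34 (-0.114 without rd10 P18 replicate 1) against -0.00123 over all genes. Rom1 gave -0.56 (edgeR adjusted p = 0.44), or -0.23 without that library. Rp1, Rp1l1 and Cdhr1 gave 0.11, 0.16 and 0.13, which became 0.00, -0.07 and -0.06 without it, so their direction from P18 to P21 depended on 1 library.

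Other genes of the outer segment and connecting cilium also lay mostly below WT. In a list of 25 such genes, all tested, 20 had a log2 fold change below 0 at P15, 22 at P18 and 22 at P21. Of all genes, 50.58%, 48.92% and 49.69% were below 0. The medians of the list were -0.247, -0.458 and -0.37. Without rd10 P18 replicate 1 the P18 median was -0.313, with 21 genes below 0, so the lower median at P18 than at P21 depended on that library. None was called at P15, where the smallest p values were those of Cngb1 (-0.52, edgeR adjusted p = 0.236), the modulatory subunit of the rod channel, and Pcare (-0.79, edgeR adjusted p = 0.24), which acts with actin at new discs. At P18 Abca4, the retinoid transporter of the disc rim, fell from 1883 and 1611 CPM in WT to 583 and 898, with a log2 fold change of -1.24 ± 0.23 (edgeR adjusted p = 0.0392). Without rd10 P18 replicate 1 it gave -0.96 (edgeR adjusted p = 0.0608) and the list held no called gene. At P21 Cngb1 fell from 1225 and 992 CPM to 473 and 587 (edgeR adjusted p = 0.0445).

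A list of paralogs, close relatives of Prom1, Fscn2, Tulp1, Rp1 and Rp1l1 only, had medians above 0 against WT. Of 10 such paralogs, 8 were tested and none was called in any comparison with WT. Their medians were 0.126 at P15, 0.265 at P18 (0.361 without rd10 P18 replicate 1) and 0.278 at P21, with 2, 3 and 1 of the 8 below 0. Tub, the most abundant of them, was below both WT libraries at P18 and P21. It measured 516 and 454 CPM in WT, and in rd10 423 and 484 at P15, 290 and 394 at P18, and 367 and 423 at P21. The nearest to a call at P15 were Dcx (1.51, edgeR adjusted p = 0.0644), the neuronal doublecortin, and Fscn1 (0.45, edgeR adjusted p = 0.207), the widely expressed fascin. At P18 they were Fscn1 (0.47, edgeR adjusted p = 0.118) and Tulp3 (0.48, edgeR adjusted p = 0.144), and at P21 Tulp3 (0.64, edgeR adjusted p = 0.118) and Fscn1 (0.34, edgeR adjusted p = 0.36). The summed CPM of the paralogs was 790.1 to 1056 over the 8 libraries.

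Rod markers were mostly lower along with the outer segment genes. The summed CPM of 9 rod markers, Gnat1 being the most abundant, was 26320 and 23790 CPM in the WT libraries, then 19050 and 20060 in rd10 at P15, 16140 and 15440 at P18, and 11380 and 14020 at P21. Their median log2 fold change was -0.434, -0.53 (-0.743 without rd10 P18 replicate 1) and -0.984. At P15, 7 of the 9 rod markers had a log2 fold change below 0 and 2 above, and none was called. Rcvrn measured 1393 and 1271 CPM in WT and 1468 and 1625 in rd10 P15. The mean of Nr2e3 was 376 CPM in WT and 424 in rd10 P15. All 9 were below 0 at P18, with or without rd10 P18 replicate 1, and at P21. At P18 Nr2e3 (-1.18, edgeR adjusted p = 0.0279), a nuclear receptor of rods, and Reep6 (-1.08, edgeR adjusted p = 0.0291) were called, and neither was without rd10 P18 replicate 1 (edgeR adjusted p = 0.0686 and 0.0517). At P21 Gnat1 (-1.15, edgeR adjusted p = 0.0332), the rod transducin, and Reep6 (-1.14, edgeR adjusted p = 0.0464) were called. The ratio of the summed outer segment genes to the summed rod markers was 0.713 and 0.686 in WT and 0.695 to 0.787 in rd10. Of the 6 rd10 libraries, 2 (rd10 P15 replicate 1 and rd10 P18 replicate 2) fell within the WT range and the other 4 above it. Pde6b itself, whose rd10 change is in the protein and so does not check the labels, measured 2330 and 2130 CPM in WT and 964 to 1800 in rd10.

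**Figure D4:**
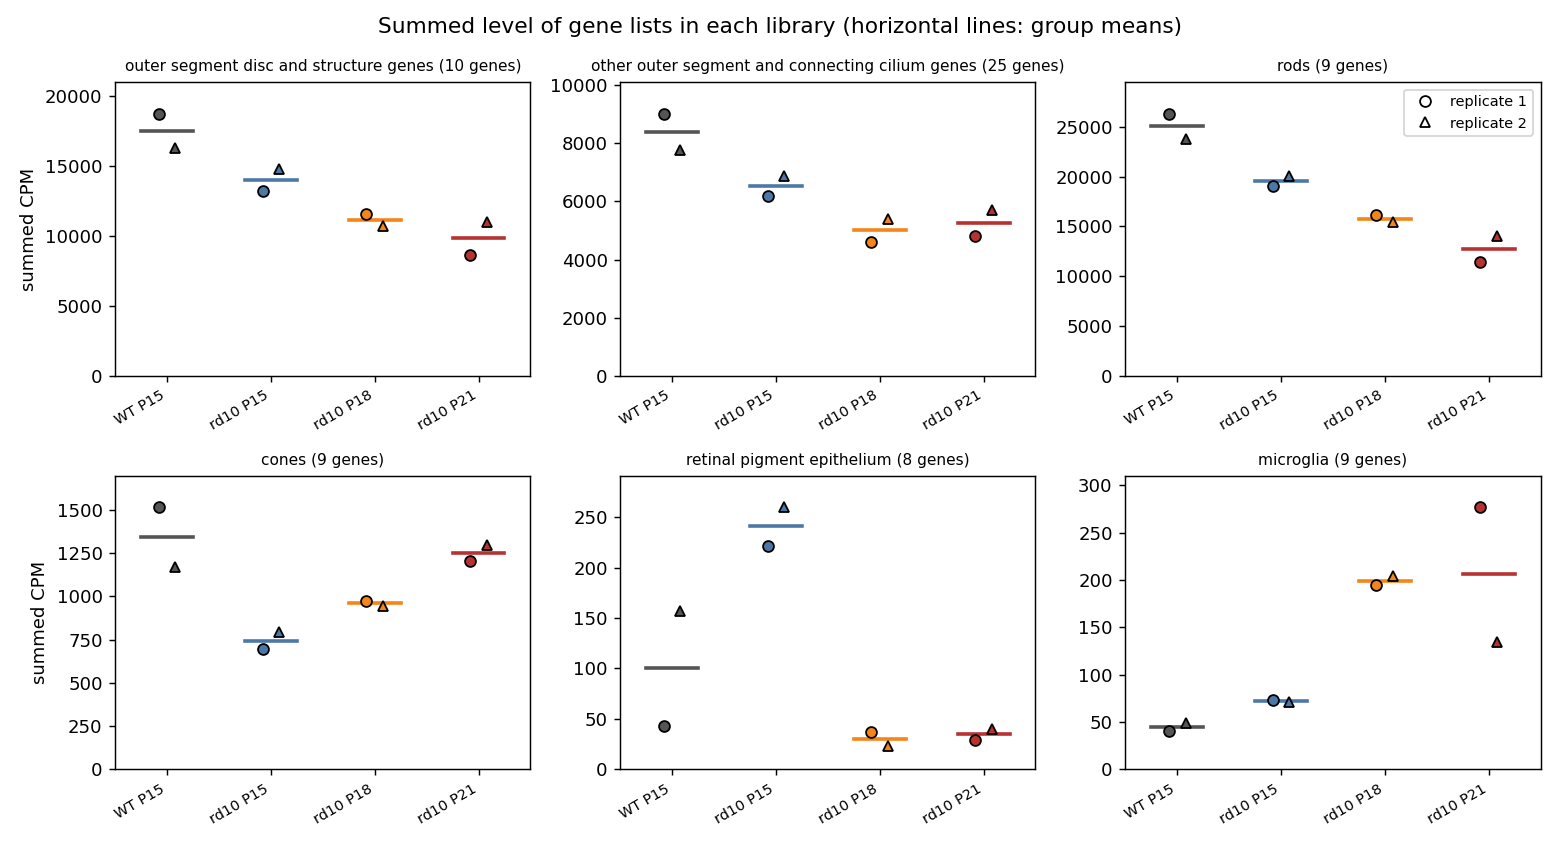
Summed CPM (vertical axis, from 0) of 6 gene lists in each library of the 4 groups. Circles are replicate 1, triangles replicate 2 and horizontal lines group means. The outer segment and rod sums are highest in WT P15, the cone sum is lowest in rd10 P15, and the pigment epithelium sum is highest in rd10 P15.

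Cone markers ordered the groups differently. The 9 cone markers, led by the opsin Opn1sw, summed to 1518 and 1172 CPM in WT, and in rd10 to 694 and 792 at P15, 976 and 944 at P18, and 1208 and 1298 at P21. Arr3, the cone arrestin, was the 1 called gene at P15 (-1.71, edgeR adjusted p = 0.015) and at P18 (-1.39, edgeR adjusted p = 0.015), and none was called at P21, where Pde6h (-0.68, edgeR adjusted p = 0.318) and Gnat2 (-0.37, edgeR adjusted p = 0.388) came nearest. The outer segment genes are used by both rods and cones. The part of cones in their levels was not tested.

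Summed levels of markers of other cells also varied between the groups. The 8 markers of the retinal pigment epithelium, the layer that touches the outer segments and can stay on a dissected retina, summed to 42.6 and 157 CPM in WT, and in rd10 to 222 and 260 at P15, 36.6 and 23.2 at P18, and 29.2 and 39.5 at P21, none of them at 0 in all libraries, with Ttr as the most abundant. Reactive Muller glia markers (10 genes, Gfap the highest) summed to 162 and 184 CPM in WT, and in rd10 to 124 and 128 at P15, 1502 and 1308 at P18, and 720 and 598 at P21, and microglia markers (9 genes, Csf1r the highest) to 40.5 and 48.8, 73.3 and 70.9, 195 and 203.9, and 277 and 135. Their part in the levels of the outer segment genes was not tested. Markers of Muller glia (4007 to 6391, Glul highest), bipolar cells (1480 to 2134, Prkca highest), amacrine and ganglion cells (2296 to 2813, Nefl highest), endothelium (240.7 to 507.5, Kdr highest) and red blood cells (56.77 to 187.9, Hbb-bs highest) were found in all libraries. The 6 endothelium markers had a median log2 fold change against WT of 0.879 at P15, 0.715 at P18 (0.821 without rd10 P18 replicate 1) and 0.792 at P21. The 8 lens markers summed to 0.4435 to 6.473 CPM, Bfsp1 the highest, and 1 of them was at 0 throughout.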

How the data were processed

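Whole retina RNA was selected by poly(A), and sequenced on an Illumina NovaSeq platform per the study's methods. The authors deposited 1 table of raw gene counts for all 8 libraries, which was used as given. The submitters' processing notes name HISAT2. No source used here states the counting tool, genome build, annotation or strand setting. Identifiers were named with GENCODE M21 (52081 of 57010 found), and transcript length is that of the transcript with the longest coding sequence.

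Genes were filtered with filterByExpr (minimum count 10, minimum total 15), scaled by TMM and tested with edgeR 4.0.16 (R 4.3.3), quasi-likelihood with robust estimates, in 1 fit of 4 groups and 8 libraries without covariates. With 4 residual degrees of freedom, intervals are wide, and an exact permutation test of 2 against 2 cannot go below 0.333. Intervals of 95% have equal tails and are the estimate ± the matching t quantile times SE. The quantile is taken on the total degrees of freedom of edgeR's moderated test, not on the 4 residual ones. Genes were called at an adjusted p below 0.05 and an absolute log2 fold change above 1. DESeq2 1.42.0, RLE factors, scaling by library size only, no filter, no fold threshold, a replicate block, a term for sex, fits of the 4 libraries compared and leaving out each library were the alternatives. The script was tested on simulated data. The outer segment genes, the other lists and the tests were chosen with earlier results of these data known. For the other outer segment genes, paralogs, rods and cones, genes called against WT were named, at most 3 in each direction. Where none was called, the 2 with the smallest p were named, except for rods at P15, where the 2 above 0 were. Called genes of the remaining cell lists were not named as such. By edgeR against WT, reactive Muller glia held 1 called lower at P15, 9 higher at P18 and 7 higher at P21. Microglia held 3 higher at P18 and 2 higher at P21. Endothelium held 1 higher at P15 and 1 at P18, and pigment epithelium 1 lower at P21. For cell markers and the paralogs, the most abundant gene was also named. From the marker lists, 1 rod gene and 1 microglia gene are not reported here and were left out of every sum and count. The values of other lists without rd10 P18 replicate 1 were added after the data had been seen.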

Additional observations from a re-analysis of the deposited data

Results flagged for a closer look

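Prom1 and Impg2 were on opposite sides of the WT mean at the first and last rd10 ages. For both genes, the 2 rd10 P15 libraries lay above the WT P15 mean and the 2 rd10 P21 libraries lay below it. The difference itself, rd10 P21 against rd10 P15, gave a log2 fold change of -0.66 for Prom1 (edgeR adjusted p = 0.224) and -0.59 for Impg2 (edgeR adjusted p = 0.237), neither past the threshold.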

How the results depend on the processing

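The number of outer segment genes called at P15 against WT was 0 under all alternatives run. At P18 against WT (1 called) it was 2 with DESeq2 and without a filter, 0 when scaled by library size only, with the replicate block, with the term for sex or with only the 4 libraries compared, and 0 to 2 when leaving out 1 library. At P21 against WT (2 called) it was 3 with DESeq2 and without a filter, 1 with RLE factors, 0 when scaled by library size only, with the replicate block or with the term for sex, and 0 to 3 when leaving out 1 library. From P18 to P21 in rd10 (0 called) it was 0 to 1 when leaving out 1 library. With only the 4 libraries compared at P21 against WT, Rom1 was called and Fscn2 was not. With library size scaling alone, the median of all genes lay at 0.135 at P18 and 0.112 at P21 against WT.

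Same-numbered libraries had correlations of -0.0245 to 0.0594 between their deviations from the group means. With 2 libraries a group, such values cannot show whether the replicate numbers pair the libraries. Under the replicate block the edgeR adjusted p was 0.0553 for Rp1l1 at P18, 0.0822 for Prph2 at P21 and 0.085 for Fscn2 at P21.

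Of 900 values of single genes under the alternatives, 25 changed direction, all of genes not called. Scaled by library size only, Cdhr1 gave 0.0098 at P15, and Prom1 and Impg2 gave 0.074 and 0.10 at P18. With the term for sex, Rp1, Rp1l1, Cdhr1 and Rpgrip1 gave 0.12, 0.052, 0.28 and 0.25 at P15, and Prom1 and Impg2 gave 0.054 and 0.12 at P18. Leaving out 1 library at a time, the log2 fold change against WT ran from -0.17 to 0.11 for Cdhr1 and from -0.022 to 0.29 for Impg2 at P15, from -0.19 to 0.11 for Prom1 and from -0.26 to 0.19 for Impg2 at P18, and from -0.094 to 0.23 for Rpgrip1 at P21. From P15 to P18 it ran from -0.48 to 0.12 for Rom1, from -0.21 to 0.22 for Tulp1 and from -0.38 to 0.067 for Impg2, and from P18 to P21 from -0.075 to 0.27 for Rp1, from -0.069 to 0.44 for Rp1l1 and from -0.063 to 0.35 for Cdhr1. The cause was not tested. The term for sex is set by rd10 P18 and P21, where replicate 1 alone had Y-linked counts. The lowest count of an outer segment gene in any library was 1376 (Fscn2), and each group held 2 libraries. What limits these values was not tested.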
